A study of Mus musculus with 146 samples.

Results

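Newborn germ cells whose library held Pecam1 at 10 TPM or more were compared with germ cells whose library held less than 1 TPM, where TPM is transcript abundance scaled for length and depth. The cells were thus chosen by measured values, those of Pecam1 and of the germ cell gene Ddx4 (Vasa), and cells with Ddx4 below 1 TPM were left out. Of 146 libraries, 1 had no Ddx4. Of the others, 38 were Pecam1-positive, 78 were Pecam1-negative and 29 lay between the limits. The libraries came from C57/BL6J mice on day 0.5 after birth, and each was made by Smart-seq2 from 1 cell taken from a pool of 5 ovaries of the same litter. No treatment or mutation was applied. The study screened libraries by quantitative PCR for Vasa and the pregranulosa gene Foxl2, and removed those positive for Foxl2. Since the labels tie no cell to an animal, the cells cannot stand in for replicates, and differences are described without a test, SE or p-value.

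Some cells were present in the series more than once. In 7 pairs of libraries the correlation of log2(TPM + 1) was between 0.983 and 0.992, whereas the highest among all other pairs was 0.827 and the median of all pairs was 0.626. Each pair joined 1 of the last libraries (S140 to S146) to an earlier one (S045, S046, S058, S062, S063, S123 or S124). The labels list them as separate samples. Each pair was counted as 1 cell with the mean of its values, which left 36 Pecam1-positive, 74 Pecam1-negative and 28 intermediate cells, beside the 1 cell without Ddx4. Values with every library as a cell of its own are given beside the counts that lead below.

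Pecam1 (CD31) is an adhesion receptor of the immunoglobulin superfamily. It is best known from endothelial cells, platelets and leukocytes, where it sits at cell contacts and signals through tyrosine motifs in its cytoplasmic tail. Germ cells and pluripotent cells can also carry it. In the newborn mouse ovary, germ cells pass through meiotic prophase and arrest at its diplotene stage, germ cell cysts break down and the first oocytes are enclosed in primordial follicles, so cells at several steps are present side by side.

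Pecam1 is known for alternative splicing of the exons of its cytoplasmic tail. Exons and junctions of the spliced forms are shown because the Pecam1-positive and Pecam1-negative libraries differed in the transcripts to which reads were assigned. The same Pecam1 reads set the groups, so this difference is bound to the Pecam1 level. The gene lies on the minus strand of mouse chromosome 11 (mm10, chr11:106654217-106750628) and GENCODE M21 lists 8 transcripts for it. Pecam1-207 (3006 bases, 15 exons) carries an exon of 57 bases and an exon of 23 bases near its 3′ end, Pecam1-202 (3283 bases, 15 exons) carries the 57-base exon and skips the other, and Pecam1-203 (3233 bases, 14 exons) skips both. The 57-base exon (chr11:106671742-106671798) is known for an inhibitory tyrosine motif of the tail, and it is also part of Pecam1-201 and Pecam1-204. The 23-base exon (chr11:106662002-106662024) is also part of Pecam1-204. Both are printed in the direction of the gene. In the junctions the lower-case letters are the last 15 bases of the upstream exon and the capitals are the first 15 bases of the next exon. The Pecam1-202 junction leads into the 57-base exon. It sets Pecam1-202 apart from Pecam1-203, which skips that exon, while Pecam1-207 carries the exon too.
57-base exon: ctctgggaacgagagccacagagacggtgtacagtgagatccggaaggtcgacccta
23-base exon: atctcatggaaaacagatactct
Pecam1-203 junction: ttgagcctcaccaagAGAACGGAAGGCTCC
Pecam1-202 junction: ttgagcctcaccaagCTCTGGGAACGAGAG
Pecam1-207 junction: ggaaggtcgaccctaATCTCATGGAAAACA
A further transcript, Pecam1-208 (chr11:106661185-106663326), is annotated as a retained intron. It is a single stretch of 2142 bases that includes the 23-base exon.

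Transcripts were counted by library, so both libraries of a pair enter these counts. All 38 Pecam1-positive libraries had Pecam1 reads on more than the retained intron. In 33 of them the reads were divided among several transcripts, in 3 all reads were on Pecam1-207, in 1 on Pecam1-203 and in 1 on Pecam1-201. Of the 78 Pecam1-negative libraries, 22 had no Pecam1 read, and in 44 of the 56 with reads (78.6%) every read was assigned to Pecam1-208. In the intermediate libraries this was so in 6 of 29 (20.7%), and the highest level made of Pecam1-208 alone was 4.57 TPM. The same reads set the groups, and negative libraries with reads had a median of 6.11 reads, against 461 in positive libraries. Since low levels were chosen in the negative group, these shares cannot separate a difference in splicing from the level. The transcript was read from the gene length that the files list for each library. The mean effective length of the Pecam1 transcripts, calculated from reads, TPM and the spike-ins, had a median of 2875 bases in positive libraries (range 1701 to 3085) and 1966 bases in negative libraries with reads (range 1598 to 2799). In the 50 libraries with Pecam1-208 alone it lay between 1894 and 2017 bases, and in the 3 libraries with Pecam1-203 alone between 3014 and 3039 bases. The remaining 12 negative libraries with reads had some or all of them on other transcripts.

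**Figure D1:**
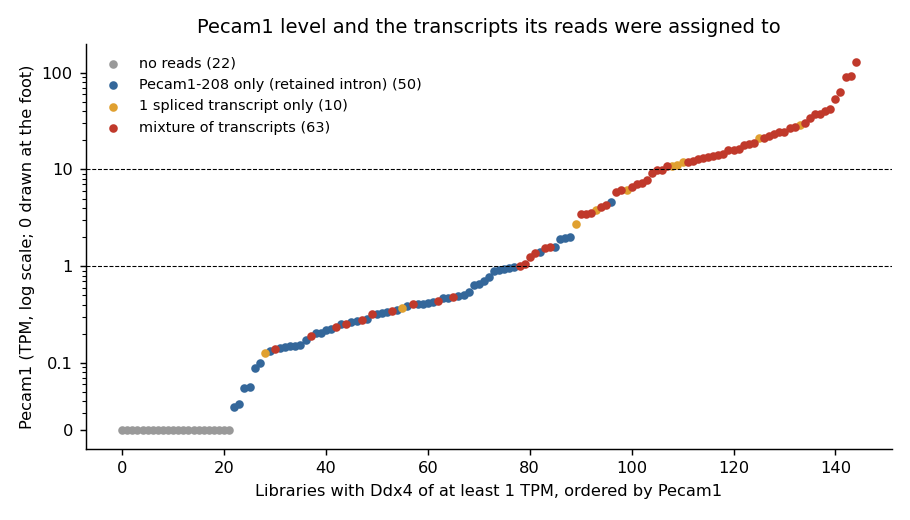
Pecam1 level of each library with Ddx4 of at least 1 TPM, on a log scale with libraries without reads drawn at the foot, coloured by the transcripts to which the reads were assigned. Dashed lines mark 1 and 10 TPM. The 44 negative libraries with the retained intron alone lie below 1 TPM by the rule that formed the group. No library above 10 TPM is of that kind. Level and transcript come from the same reads.

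The Pecam1 level in Pecam1-positive cells ranged from 10.95 to 128.2 TPM with a median of 20.2 TPM. These levels rested on 155 to 8250 reads per cell, with a median of 461 and the highest from a cell of which both libraries were summed. Of the 36 cells, 18 had at least 20 TPM and 4 had at least 50 TPM. The 3 cells just inside the limit had 10.95, 10.97 and 11.05 TPM, and the 3 just below it had 9.99, 9.94 and 9.16 TPM, so the levels ran on across the upper limit without a gap. At the lower limit, the lowest intermediate cell had 1.01 TPM and the highest negative cell had 0.989 TPM. Negative cells had a median of 0.204 TPM and at most 18.4 reads, and 19 of the 74 had none.

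The 7 cells sequenced as a pair show how well a Pecam1 level repeated. The positive pairs gave 89.95 and 92.73 TPM in S046 and S141, and 21.13 and 17.97 TPM in S045 and S140. The intermediate pair gave 3.43 and 3.54 TPM. All 4 negative pairs stayed below 1 TPM, but 3 of them had no read in the first library and 0.286, 0.408 and 0.469 TPM in the second, from 6.09 to 12.4 reads. The second library was the deeper in these 3, with 26131300 against 6986110 reads, 11752800 against 6396680 and 6812260 against 5337920. No pair changed its group. Whether a cell had no read or a few differed between the libraries of these 3 pairs, which also differed in depth.

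Few cells stood behind the values of the endothelial genes Cdh5 and Egfl7. Cdh5 (VE-cadherin, the adherens junction cadherin of endothelium) had a mean of 0.0201 TPM in Pecam1-positive cells and 0.105 TPM in Pecam1-negative cells. At least 1 read of Cdh5 was found in 1 of 36 positive cells (2.78%, exact 95% binomial interval 0.0703 to 14.5%) and in 9 of 74 negative cells (12.2%, 5.71 to 21.8%). Summed over cells, the positive group held 15 Cdh5 reads (exact 95% Poisson interval 8.40 to 24.7) and the negative group held 312 (278 to 349). The highest Cdh5 level in a positive cell was 0.722 TPM, in a cell with 33.9 TPM of Pecam1 and 448 TPM of Dazl. Intervals cover counting error only.

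Egfl7, a secreted factor of endothelial cells, was detected in 2 of 36 positive cells (5.56%, 0.68 to 18.7%), in 0 of 28 intermediate cells, which allows a share of up to 10.7% by the limit of 3 counts and 12.3% by the exact interval, and in 3 of 74 negative cells (4.05%, 0.844 to 11.4%). Its mean was 0.3 TPM in positive and 0.565 TPM in negative cells. Each mean came almost wholly from 1 cell, with 10.2 TPM in a positive cell and 41.1 TPM in a negative cell. Its log2 ratio of -0.27 lay between -0.62 and 0.37 with each cell left out in turn, and in the middle cells described below the means were 0.338 and 0.0141 TPM (0.40). The positive cell with 10.2 TPM also held 53.5 TPM of Pecam1 and 904 TPM of Dazl. After each cell was thinned to 1000000 reads, Cdh5 was found in 1 positive and 6 negative cells, and Egfl7 in 2 positive cells and 1 negative cell.

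Other endothelial genes had reads in more cells, as Tie1, an endothelial receptor kinase, did in 63.9% of positive and 52.7% of negative cells and Flt1, a VEGF receptor, in 44.4% and 56.8%. Of 22 listed genes, 9 reached 0.1 TPM in at least 10 cells, and the 2 that averaged 1 TPM or more in 1 of the groups were Plvap, a protein of endothelial diaphragms (4.92 TPM in positive and 2.61 TPM in negative cells), and Flt1 (1.05 and 1.21 TPM). The median log2 ratio of these 2 was 0.30, beside 0.05 over all 11924 genes above the same minimum, and its sign depended on the scale, as it was -0.16 in CPM and -0.041 with spike-in scaling. Neither differed 2-fold. Kdr, the main VEGF receptor, had means of 0.0249 and 0.0766 TPM. Emcn, an endothelial sialomucin, had 1 read in the positive group and 2 in the negative group. Single cells stood out for single genes, as Esam was at 61.3 TPM in 1 positive cell and Cldn5, of endothelial tight junctions, at 52.5 TPM in 1 negative cell. Sox17 and Robo4 were at 0 in every cell of both groups, and Cldn5 in every positive cell. At least 1 of Cdh5, Kdr, Tek, Tie1 and Emcn reached 1 TPM in 2 of 36 positive cells (5.56%, 0.68 to 18.7%), 6 of 28 intermediate cells (21.4%, 8.30 to 40.95%) and 14 of 74 negative cells (18.9%, 10.7 to 29.7%). No cell had 2 of these genes at that level. This share depends on the genes counted, since other members reached 0.1 TPM more often in positive cells: Cd34, a surface sialomucin, in 44.4% against 28.4%, Plvap in 22.2% against 10.8%, Ptprb, an endothelial phosphatase, in 11.1% against 5.41% and Mmrn2 in 8.33% against 1.35%. The summed level of the endothelial list ranged from 0.0424 to 62.7 TPM (median 3.67) in positive cells and from 0 to 83.01 TPM (median 3.59) in negative cells, so the ranges overlapped. In the middle cells described below, the sums ranged from 0.0424 to 57.4 TPM (median 3.67) in positive cells and from 0 to 83.01 TPM (median 0.824) in negative cells. The leukocyte and platelet list, the other cells in which PECAM1 is best known, had medians of 0.202 and 0.151 TPM and means of 4.6 and 1.8 TPM. In middle cells the means were 4.94 and 0.638 TPM, and 4 of 32 positive and 0 of 32 negative cells had at least 10 TPM. Of its 12 genes, 7 were at 0 in every positive cell and 4 in every negative cell, with Tyrobp, Adgre1 and Gp9 at 0 in both groups.

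**Figure D2:**
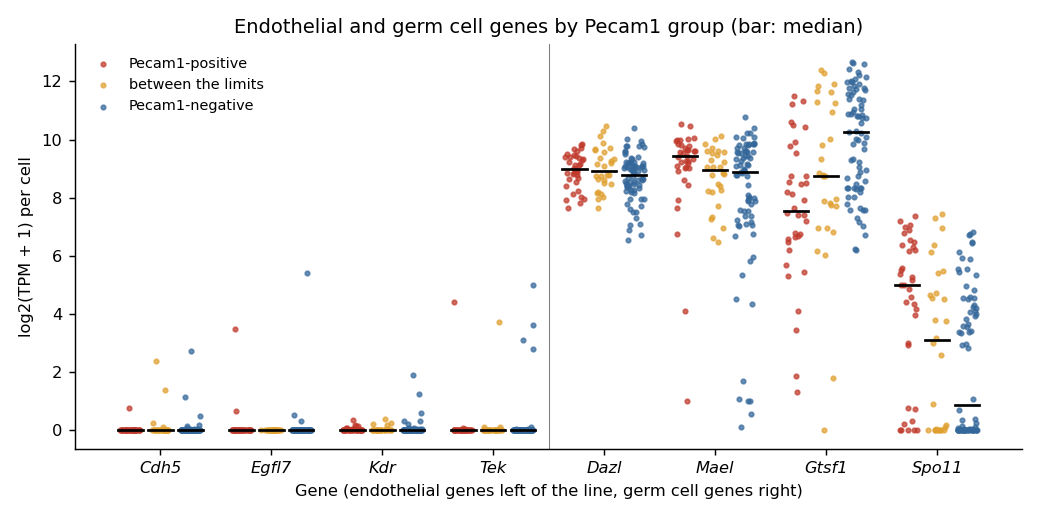
Levels of 4 endothelial genes and 4 germ cell genes as log2(TPM + 1), with 1 point per cell for 36 Pecam1-positive, 28 intermediate and 74 Pecam1-negative cells and a bar at each median. The medians of the endothelial genes are at 0 in all 3 groups, Dazl is high in every cell, and Gtsf1 and Spo11 shift in opposite directions.

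Most germ cell genes differed less than 2-fold between the groups by the ratio of means. The summed germ cell list was lower in positive cells, with medians of 4287 and 5373 TPM and means of 4257 and 6097 TPM. Dazl, an RNA-binding protein of germ cells, ranged from 198 to 931 TPM (median 506) in positive cells and from 93.3 to 1348 TPM (median 439) in negative cells. Every cell of both groups had Dazl reads. Mael, of the piRNA pathway, had means of 683 and 494 TPM, and its difference of mean log2(TPM + 1) was 1.02. Of 17 germ cell genes averaging 1 TPM or more, 0 were at least 2-fold higher in positive cells (4.76% of the 11924 genes above this minimum were) and 3 were at least 2-fold lower (6.67% of those genes were). The median log2 ratio of the list was 0.09. Kit, the receptor of germ cells for KIT ligand, had 153 and 174 TPM, and Piwil2 had 161 and 152 TPM.

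The 3 germ cell genes that were lower in Pecam1-positive cells were Gtsf1, Dppa3 and Sall4. Gtsf1, a partner of PIWI proteins, ranged from 1.5 to 2919 TPM with a median of 188 TPM in positive cells and from 73.2 to 6447 TPM with a median of 1215 TPM in negative cells. The groups overlapped widely, but the means of 536 and 1830 TPM gave a log2 ratio of -1.77, between -1.97 and -1.72 with each cell left out in turn. Dppa3 (Stella), a maternal factor that protects DNA methylation, had medians of 170 and 675 TPM and a log2 ratio of -1.63. Sall4, a zinc finger factor of germ and stem cells, had means of 1.6 and 11.5 TPM and was at or above 0.1 TPM in 13.9% of positive and 44.6% of negative cells. Its log2 ratio of -2.27 was -3.54 without 1 positive cell that held 55.1 TPM, and it was -0.56 in middle cells. Boll lay the other way, with means of 62.9 and 31.2 TPM (log2 ratio 0.99).

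Several genes of meiotic recombination were higher in Pecam1-positive cells. Of 34 meiosis genes averaging 1 TPM or more, 28 had a ratio above 0 and 6 below, 4 were at least 2-fold higher and 0 were at least 2-fold lower, beside 4.76% and 6.67% of all genes above that minimum. The list median was 0.43, beside 0.05 over those genes. Spo11, the protein that makes meiotic DNA breaks, ranged from 0 to 164 TPM (median 31.2) in positive cells and from 0 to 112.1 TPM (median 0.866) in negative cells, with a log2 ratio of 1.44. Hfm1, a helicase of crossover formation, had means of 98.9 and 37.96 TPM (log2 ratio 1.36). Mei1, needed for break formation, had 15.8 and 7.07 TPM (1.06), and the meiotic cohesin Rad21l had 45.6 and 22.1 TPM (1.01). Leaving out single cells lowered Mei1 to 0.93 and Rad21l to 0.94. Detection differed as well: Spo11 was at or above 0.1 TPM in 86.1% of positive and 56.8% of negative cells, and Rad21l in 83.3% and 52.7%. Rec8, a meiotic cohesin, was detected in too few cells to be compared (13.9% of positive and 2.7% of negative cells). Among genes of the chromosome axis, Sycp3 had 2892 and 2674 TPM, Hormad1 had 581 and 521 TPM, Sycp2 had 227 and 149 TPM (log2 ratio 0.60) and the cohesin Stag3 had 247 and 185 TPM (0.41). Sycp1, of the transverse filaments, had 1116 and 1128 TPM.

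Maternal and zona pellucida genes were lower in Pecam1-positive cells. All 21 genes of the list averaging 1 TPM or more had a ratio below 0, 18 were at least 2-fold lower (6.67% of all genes above that minimum were), and the median log2 ratio was -1.63, beside 0.05 over those genes. Npm2, a chromatin chaperone of the egg, had means of 0.704 and 54.4 TPM (log2 ratio -5.02). Zp3, which encodes a zona pellucida protein, had 4.99 and 168 TPM (-4.81), and Zp1 had 0.846 and 33.9 TPM (-4.24). Gdf9, a growth factor of oocytes, had 7.77 and 39.4 TPM (-2.20). Single cells set part of these values, as without 1 cell the ratio was -6.35 for Zp3, -5.73 for Npm2 and -3.08 for Gdf9. Padi6, of the oocyte lattices, ranged from 0 to 1184 TPM in positive cells and from 0 to 2680 TPM in negative cells, so single cells of both groups reached high levels. Intermediate cells were nearer the negative cells in mean Zp3 (256 TPM), and their mean Padi6 was 329 TPM. By the median of the summed list they lay between the groups, with 1062 TPM beside 482 TPM in positive and 1927 TPM in negative cells.

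These differences moved with the step of development at which the cells were. Cells were sorted by 2 genes into early (Sohlh1 and Zp3 below 10 TPM), middle (Sohlh1 at 10 TPM or more and Zp3 below 10 TPM) and late cells (Zp3 at 10 TPM or more). Sohlh1 is a transcription factor of early oocytes. Of 80 middle cells, 32 were Pecam1-positive (40%, exact 95% binomial interval 29.2 to 51.6%). Among 47 late cells the number was 2 (4.26%, 0.52 to 14.5%), and among 11 early cells it was 2 (18.2%, 2.28 to 51.8%). The median Pecam1 level was 0.149 TPM in early cells, 4.32 TPM in middle cells and 0.367 TPM in late cells. The highest level was 128.2 TPM in middle cells, 41.8 TPM in early cells and 13.8 TPM in late cells.

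A finer order was also made. Cells were ordered by the mean log2(TPM + 1) of the maternal and zona genes and divided into 5 groups of 27 or 28 cells, an order chosen after the data had been seen. The share of Pecam1-positive cells was 39.3% (21.5 to 59.4%) in the lowest group, 42.9% (24.5 to 62.8%) in the next, 25% (10.7 to 44.9%) in the third, 14.8% (4.19 to 33.7%) in group 4 and 7.41% (0.91 to 24.3%) in the highest. The lowest group had a share close to that of the next, whereas the early cells above had a lower share than the middle cells, with overlapping intervals. The intervals of neighbouring groups overlapped. All of these intervals cover counting error only and are no test between groups, and the share also moved with library number, as given below. Mean Pecam1 fell from 15.5 TPM in the lowest group to 2.02 TPM in the highest, while mean Spo11 went from 63.7 to 2.73 TPM. Zp3, from 0.0604 to 608 TPM, is one of the genes that set the order. Spearman's rho of Pecam1 with the maternal score was -0.22 and with the meiosis score 0.31 over the cells kept, which are not independent samples. Over the 80 middle cells these values were -0.15 and 0.29. Even in the 2 groups with most Pecam1, 11 of 28 cells were Pecam1-negative.

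**Figure D3:**
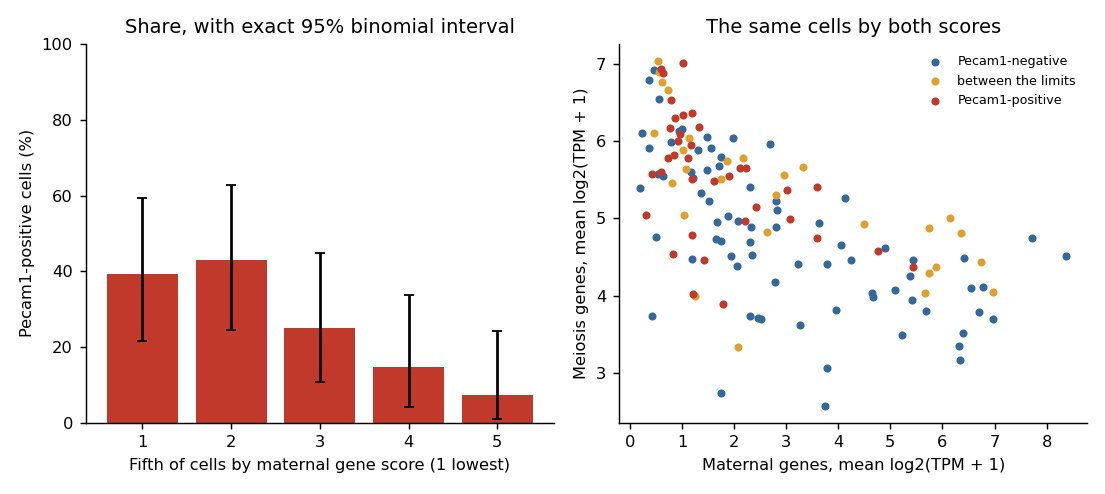
Left, share of Pecam1-positive cells in 5 groups of cells ordered by the maternal score, with exact 95% binomial intervals. Right, maternal score against meiosis score, each a mean log2(TPM + 1), with 1 point per cell. Positive cells gather at low maternal scores, where the share is 39.3 and 42.9%, and the share is 7.41% in the highest group.

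Within middle cells, 32 of which were positive and 32 negative, the maternal difference was smaller. The median of the maternal list was -0.23, with 4 of 17 genes at least 2-fold lower (Zp1, Npm2, Nlrp14 and Dppa3) and 2 at least 2-fold higher (Khdc3 and Oas1d), beside 5.43% and 8.85% of the 11727 genes above this minimum. Several of these rest on single cells. With each middle cell left out in turn, the ratio of Oas1d (2.43) was as low as 0.01, that of Dppa3 (-1.05) lay between -1.24 and -0.77, that of Npm2 between -1.97 and 0.55, that of Nlrp14 between -1.72 and -0.23 and that of Padi6 between -1.07 and 1.88. Npm2 was detected in 18.8% of both groups. Zp3 is bounded by the definition of middle cells. As Zp3 is on the list, this limit can also lower other members that rise with it, so a smaller difference is partly built in. The list median over all stages rested on 21 genes. Padi6 had 60.9 and 52.8 TPM, H1foo, the oocyte linker histone, had 22.9 and 19.4 TPM, and Zp2 had 55.04 and 36.3 TPM. The meiosis list had a median of 0.18, with 19 of 35 genes above 0, and the ratios of Spo11 (0.76), Hfm1 (0.87), Mei1 (0.64) and Rad21l (0.72) were below 2-fold. Of the 35 genes, 2 were at least 2-fold higher and 1 was lower, beside 8.85% and 5.43% of all genes. Those higher were Msh5, a MutS protein of crossover formation (22.7 and 3.7 TPM, 2.33), and Meioc, needed for meiotic prophase (48.3 and 14.5 TPM, 1.67), and the lower one was Stra8, of meiotic entry (0.00428 and 1.57 TPM, -1.36, and -0.75 without 1 cell). The germ cell list had a median of -0.10. Gtsf1 was still at least 2-fold lower, with medians of 173 and 622 TPM (log2 ratio of the means -1.40). Dppa3 had medians of 170 and 394 TPM, and Boll had a ratio of 1.24, which was 0.92 without 1 cell.

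**Figure D4:**
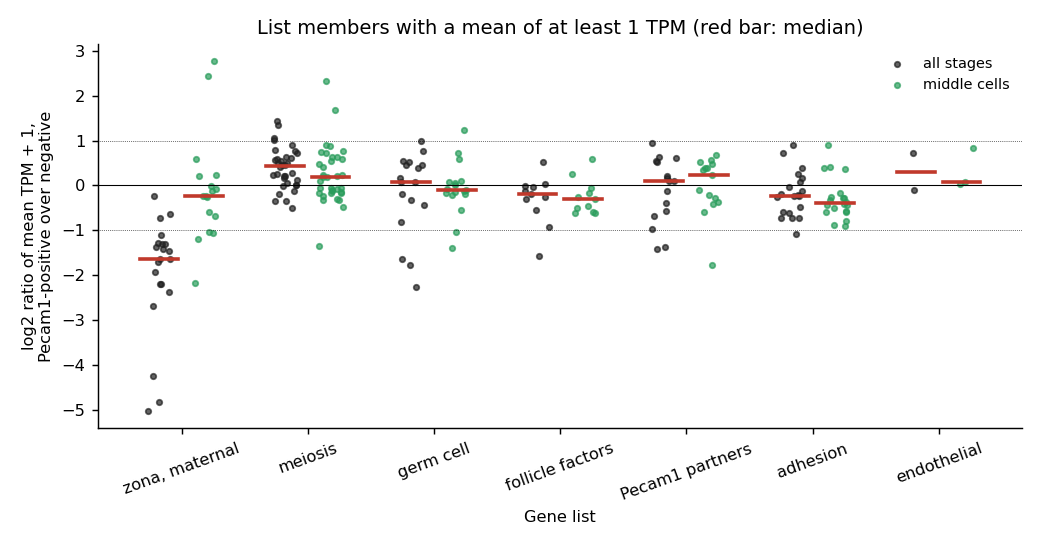
Log2 ratios of mean TPM, Pecam1-positive over Pecam1-negative cells, with a pseudocount of 1 TPM, for members of 7 gene lists averaging 1 TPM or more. Black points are all stages and green points middle cells, and red bars are medians. The maternal list lies at -1.63 over all stages and at -0.23 in middle cells, and the endothelial list has 2 and 3 such genes.

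Across all 13994 coding genes compared, 568 (4.06%) were at least 2-fold higher and 795 (5.68%) at least 2-fold lower in Pecam1-positive cells. With every library as a cell the counts were 562 and 815. The balance between the directions was not stable. In middle cells 1038 genes were higher and 637 lower, and over all stages 709 were higher and 265 lower by the difference of mean log2(TPM + 1), and 1565 higher and 706 lower with Pecam1 of at least 5 TPM against below 0.1 TPM. These counts moved with the cells and the scale, as given in the closing section, and no count is a number of changed genes.

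The genes with the largest ratios in the positive direction were expressed at moderate levels. Under the rule for named genes (10 TPM or more as the mean of 1 of the groups, 0.1 TPM or more in 50% of the higher group's cells, a mean difference of at least 1 in log2(TPM + 1), and a ratio that stayed at least 2-fold without any single cell), 69 genes were higher. The first was Slc5a10, a sodium-coupled sugar transporter, with 12.1 and 2.63 TPM (log2 ratio 1.85). Itih2, a hyaluronan-binding protein, had medians of 21.9 and 0 TPM and means of 31.9 and 8.23 TPM (1.83). Hdac5, a histone deacetylase, had 27.6 and 7.36 TPM (1.77). Igf2bp1, an RNA-binding protein of fetal cells, had 19.5 and 5.04 TPM (1.77) and was detected in 77.8% and 51.4% of cells. The others of the 15 were Cyb5rl, Gm10718, Vopp1, Slc35c1, Jmjd7, Hist1h4i, Cbx6, Lca5l, Asic5, Klhl35 and Npdc1, with ratios from 1.60 to 1.85.

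In the negative direction 125 genes passed the same rule. Npm2 and Zp3 had the largest ratios. They were followed by Dpf3, a subunit of a chromatin remodelling complex, with 10.5 and 105.6 TPM (-3.21), the kinase Map3k6 (-2.94) and Zfp618 with 0.787 and 11.7 TPM (-2.83). Nlrp14, an oocyte NLR protein, had 4.2 and 32.5 TPM (-2.68). Sp140, a nuclear body protein, had medians of 0.081 and 41.7 TPM (log2 ratio of the means -2.61). Tuba1c, an alpha-tubulin, had medians of 0.351 and 148 TPM and means of 54.1 and 283 TPM (-2.37). Without 1 cell the ratios of Dpf3, Map3k6, Nlrp14 and Sp140 were as low as -3.86, -3.60, -3.75 and -3.40. Camk2d, Slc30a3, Ttc7, Tsga10ip, Hsd3b7 and Noto had ratios from -2.66 to -2.26. In middle cells Sp140 (-2.58), Map3k6 (-1.95) and Tuba1c (-1.54) were still at least 2-fold lower, whereas Tsga10ip (-0.19) and Noto (-0.09) were not. With each middle cell left out in turn, Map3k6 lay between -2.85 and -1.68, Tsga10ip between -0.64 and 0.81 and Noto between -0.74 and 0.45.

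Applied within middle cells, the same rule was passed by more genes in the positive direction than in the negative, where 41 did. The largest positive ratios were those of the globin genes Hba-a2 (1972 and 94.5 TPM, log2 ratio 4.37), Hbb-bs (3.95) and Hba-a1 (3.65), which are RNAs of red blood cells. Without 1 cell these were as high as 6.20, 5.21 and 4.64. Positive and negative middle cells were spread unevenly over the library numbers, with which the globin level moved, as given below. They were followed by Ankrd13d (3.45), Atg16l2 (2.81), Npdc1 (2.66), Msh5, Slc35c1 (2.31), Tnpo2 (2.18) and Gprasp2 (2.15), of which Npdc1 and Gprasp2 reached 3.48 and 3.26 without 1 cell. The largest negative ratios were those of Kdm3b, a histone demethylase (15.3 and 120 TPM, -2.89), Sp140, Ocln, a tight junction protein (6.13 and 39.9 TPM, -2.52), Ttc23 (-2.34), Rbak (-2.32), Ccdc85b (-2.16), Elmod3 (-1.95), Hsd17b10 (-1.91), Crabp1 (-1.86) and Mboat2 (-1.85).

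**Figure D5:**
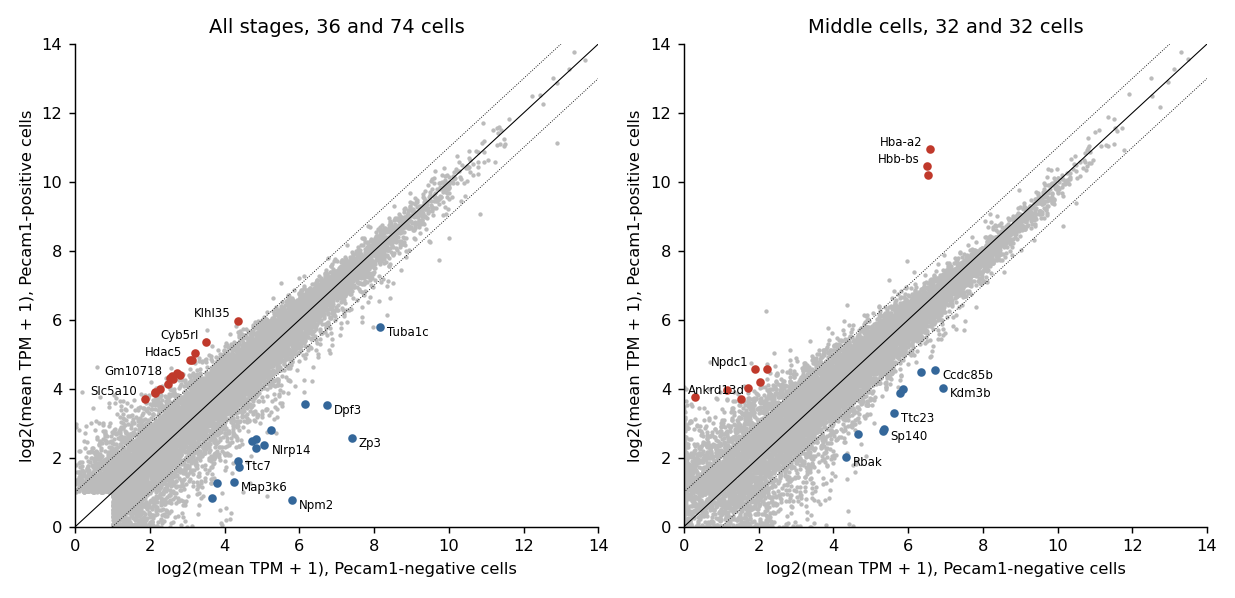
Mean level of each coding gene that averaged 1 TPM or more in 1 of the groups over all stages, as log2(mean TPM + 1), in Pecam1-negative (x axis) and Pecam1-positive cells (y axis), over all stages on the left and in middle cells on the right. Red and blue points are the genes named by the rule in the positive and negative direction, some of them labelled, and dotted lines mark 2-fold. Zp3 and Npm2 stand lowest on the left and globin genes stand apart on the right.

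Levels that went with Pecam1 across all cells kept were weakly related to it. Among 7383 genes that averaged 10 TPM or more in 1 of the groups and had 0.1 TPM or more in 50% of the higher group's cells, the highest Spearman's rho was 0.40 for Igf2bp1, and it was 0.47 in the 80 middle cells. The next were Rbmxl1 (0.39), Asic5 (0.39), Usb1 (0.39), Hba-a2 (0.38), Pkmyt1, a kinase that inhibits CDK1 (0.38), Caps2 (0.38), Zmym4 (0.38), Gm21962 (0.37) and Traf3 (0.37). The lowest were Gtsf1 (-0.39), the respiratory chain genes Uqcrq (-0.38) and Ndufb10 (-0.38), Gbas (-0.38) and Cd164l2 (-0.37). In middle cells Gtsf1 had -0.44 and Ndufb10 -0.42. The cells share a litter and differ in depth and stage.

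Of 16 listed signalling partners of PECAM1 averaging 1 TPM or more, 0 were at least 2-fold higher and 2 were at least 2-fold lower, beside 4.76% and 6.67% of all genes above that minimum, so 0 of 16 sets the list apart little. The list median was 0.10, beside 0.05 over all genes. Ptpn11 (SHP-2), the phosphatase that binds its tyrosine motifs, had 10.9 and 11.8 TPM. Ctnnb1 (beta-catenin) had 250 and 216 TPM and the kinase Yes1 had 46.2 and 31.1 TPM. Itgav, the integrin chain of a PECAM1 ligand, had 17.95 and 8.86 TPM (log2 ratio 0.94). The lower ones were Inpp5d (SHIP1), with 1.93 and 6.61 TPM, and Jup (plakoglobin), with 0.256 and 2.33 TPM. Both were below 2-fold in middle cells (-0.21 and 0.13), where 1 of 15 partners, the kinase Lyn, was at least 2-fold lower (2.93 and 12.5 TPM, -1.78, and -2.95 without 1 cell), beside 5.43% of all genes there.

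Of 20 other adhesion and surface genes averaging 1 TPM or more, 0 were at least 2-fold higher and 1, Nectin2, was lower (1.54 and 4.4 TPM, with a log2 ratio of -0.92 without 1 cell), against the same shares of all genes. Of these 20, 14 had a ratio below 0 (median -0.23), and in middle cells 16 of 20 did (median -0.40). Cd81, a tetraspanin, had 43.5 and 22.8 TPM (0.91) and its relative Cd9 had 160 and 246 TPM (-0.61). Cdh1 (E-cadherin) had 9.19 and 7.59 TPM, and Gja4, the connexin of oocytes, had 28.9 and 48.5 TPM. Among the follicle factors, Figla had 1415 and 1441 TPM, Lhx8 had 523.5 and 523.9 TPM and Nobox had 216 and 268.5 TPM, and Jag1, a Notch ligand, was 2-fold or more lower (5.29 and 17.6 TPM, -1.57) over all stages and not in middle cells (-0.25). In middle cells 9 of the 11 follicle factors had a ratio below 0 (median -0.30, beside 0.03 over all genes there). Among them were Nobox (-0.61), Id2 (-0.61), Foxo3 (-0.59), Lhx8 (-0.51) and Sohlh1 (-0.45), which is bounded by the definition of middle cells. Of the 11, 0 were at least 2-fold higher and 0 were lower, beside 8.85% and 5.43% of all genes there.

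Pluripotency genes are another group known to go with PECAM1 on the cell surface. Of 13 averaging 1 TPM or more, 1, Fut4, was at least 2-fold higher (2.29 and 0.477 TPM, with a log2 ratio that was 0.52 without 1 cell) and 3 were at least 2-fold lower, namely Sall4, Dppa3 and Prdm1, beside 4.76% and 6.67% of all genes above that minimum. The list median was -0.72, beside 0.05 over all genes. Pou5f1 (Oct4) had 8.52 and 14.8 TPM. Of 6 genes of VEGF, Notch and Tie signalling with such a mean, 0 were at least 2-fold higher and 1, Jag1, was lower (list median -0.01), which at those shares says little. In middle cells 1 of 6, Angpt2, was at least 2-fold higher (3.79 and 0.83 TPM, 1.39), beside 8.85% of all genes there. Of 5 genes beside Pecam1 on chromosome 11 with such a mean, none differed 2-fold, which likewise says little, and 4 had a ratio above 0, with a median of 0.28. Ddx5 had 1711 and 1194 TPM (0.52) and Polg2 had 12.8 and 16.6 TPM (-0.36), and Milr1, below that mean, had 0.953 and 0.89 TPM.

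RNA of other cell types was examined beside these results. The summed erythroid list had a median of 257 TPM (range 0 to 48602) in positive cells and 29.9 TPM (range 0 to 325013) in negative cells, and 22 of 36 positive and 22 of 74 negative cells had at least 100 TPM. Over all stages the means ran the other way, since 1 negative cell held 325013 TPM (median log2 ratio of 5 genes -0.27). Within middle cells 20 of 32 positive and 8 of 32 negative cells had at least 100 TPM, and all 5 genes were at least 2-fold higher (median 3.95), beside 8.85% of all genes in middle cells. The part of this RNA in the results was not tested. Without the cells at 100 TPM or more, Gtsf1 had a ratio of -1.36 and Spo11 of 1.27, and the list medians were -0.94 for the maternal and 0.17 for the meiosis genes. In middle cells without them (12 positive and 24 negative), Gtsf1 had -1.06, Dppa3 -1.05 and Spo11 0.64, while the maternal median was 0.63 and the meiosis median -0.076, both of the opposite sign to those of all middle cells. The stroma list had 7 genes averaging 1 TPM or more, all with a ratio above 0 (median 1.41), and 4 were at least 2-fold higher, beside 4.76% of all genes. Without 1 cell each of these fell below 2-fold, with ratios of 0.14 for Col3a1 (means 13.98 and 0.139 TPM), 0.35 for Col1a1 (6.55 and 0.213 TPM), 0.19 for Col1a2 (2.78 and 0.267 TPM) and 0.84 for Dcn, a matrix proteoglycan (5.18 and 1.32 TPM). In middle cells the list median was 1.92, and 4 of 7 genes were at least 2-fold higher, of which Dcn was so without any single cell (2.73, lowest 2.15). The pregranulosa list was low in both groups (medians 0.303 and 0.904 TPM), and Foxl2 had reads in 1 of 36 positive and 5 of 74 negative cells.

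Depth and quality were compared between the groups. The median number of reads assigned to genes was 8945080 in positive and 9737190 in negative cells. The median share of mitochondrial TPM was 9.3% and 8.94% and that of spike-in TPM 1.08% and 1.12%. At 1000000 reads per cell, the median number of coding genes with a read was 7868.5 in positive and 7695 in negative cells, and 7868.5 and 7239 in the positive and negative middle cells. The lowest middle cell had 5342 such genes in the positive and 3016 in the negative group, and the median spike-in share of middle cells was 1.10% and 1.37%. The part of these differences in the results was not tested.

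Library number, as the labels give it, moved with the result. The labels name no batch, and the numbers were divided into 4 ranges of about equal width after the data had been seen. Pecam1-positive cells made up 5 of 35 cells in S001 to S036 (14.3%), 14 of 37 in S037 to S073 (37.8%), 15 of 36 in S074 to S109 (41.7%) and 2 of 30 in S110 to S146 (6.67%). All 19 cells without a Pecam1 read were in the first 2 ranges. The median erythroid level was 0, 81.7, 3853 and 53.5 TPM in the 4 ranges. S074 to S109, where it was highest, held 13 positive middle cells and 1 negative middle cell. Mean Hba-a2 of these was 4616 and 2223 TPM, while the difference of mean log2(TPM + 1) was -1.07. In S037 to S073 the means of middle cells were 217 and 28.4 TPM (2.17). They were 0 and 1.03 TPM in S001 to S036 (3 positive and 11 negative) and 26.4 and 56.2 TPM in S110 to S146. Only S037 to S073 held more than 3 middle cells of each group (14 positive and 12 negative). There Gtsf1 had 373 and 739 TPM, Spo11 had 51.6 and 22.96 TPM, Hfm1 had 98.4 and 64.2 TPM, Igf2bp1 had 33.7 and 14.5 TPM and Tuba1c had 32.97 and 62.3 TPM, so each kept the direction it had over all middle cells, whereas Rad21l had 43.1 and 43.4 TPM there, beside 49.02 and 29.4 TPM over all middle cells. In S110 to S146, with 2 positive and 8 negative middle cells, the direction was the opposite for Gtsf1 (1472 and 1043 TPM), Spo11 (0 and 11.4 TPM), Hfm1 (30.8 and 47.4 TPM), Igf2bp1 (0.0359 and 0.992 TPM) and Tuba1c (421 and 91.5 TPM). Dppa3 was likewise reversed there (704 and 306 TPM), beside 323 and 474 TPM in S037 to S073. The part of the library number in these differences was not tested.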

How the data were processed

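The authors made 1 Smart-seq2 library per cell, with ERCC spike-ins, and quantified it with Salmon after FastQC, against mm10 with the spike-in sequences. The deposited values are TPM and, beside it, the estimated count of reads for each gene symbol, both made by the authors. Of 52605 symbols and 92 spike-ins, 28006 matched GENCODE M21, 35 a RefSeq symbol and 268 a RefSeq synonym, and 24296, holding a mean of 11.5% of TPM, did not. Of 19784 coding genes, the 13994 with 0.1 TPM in at least 10 cells were compared. In 3161 genes with 2 transcripts, 77.3% of 131918 values of the length column were as predicted within 0.01 base. Of these values, 78572 equalled the length of the first transcript divided by 2, and 23436 equalled the length of the second. The Pecam1 transcript was read in this way, from its length over a divisor fixed for each transcript. For Pecam1-208 the 2142 bases over 4 gave 535.5.

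Libraries held 1408460 to 26855300 reads assigned to genes (median of kept cells 9669900). The study's own limits on depth, mitochondrial and spike-in share were not applied. The cells are not separate animals, and all belong to 1 litter. Mean TPM, log2 ratios of mean TPM with a pseudocount of 1 TPM, and exact 95% intervals for counting error were calculated with Python 3.11.15, pandas 2.3.3, NumPy 2.4.6 and SciPy 1.17.1, and figures with matplotlib 3.10.9. The calculation of the ratio was tried on simulated data, and the outcome is not given here. Named genes were the 15 largest ratios in each direction under the rule given above, 10 in each direction within middle cells, and the 10 highest and 5 lowest correlations. A named gene is not reported here. Members, lists and rules were chosen with earlier results of these data known. Alternatives changed the limits, stage, scaling (CPM, spike-ins), filter, pseudocount, depth and cells with RNA of other types.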

Additional observations from a re-analysis of the deposited data

Results flagged for a closer look

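The library left out for lack of Ddx4 was examined on its own, as its values entered no comparison. It held 4 reads of Pecam1 (0.958 TPM), all assigned to Pecam1-201, 10 reads of Cdh5 (1.74 TPM) and 1 read of Dazl, and Egfl7, Kdr and Tek were at 0. It had 1408460 reads assigned to genes, the lowest number of the series.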

How the results depend on the processing

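Counts of genes at least 2-fold higher and lower, 568 and 795 as reported, moved with the cells and the scale. They were 1565 and 706 with Pecam1 of at least 5 TPM against below 0.1 TPM, 861 and 1473 with at least 20 TPM, 1167 and 1432 with a pseudocount of 0.1 TPM, 1661 and 4375 in early cells (2 against 7), 1038 higher in middle cells, 1346 and 3456 in late cells (2 against 35), 884 and 1291 without cells with 100 TPM of erythroid genes, and 1525 and 1293 in middle cells without those. By the difference of mean log2(TPM + 1), 709 were higher and 265 lower, so this scale and the limits of 5 and 0.1 TPM also turned the balance. The maternal median (-1.63) was -2.96 with Pecam1 of at least 20 TPM, -1.01 by mean log2, -0.88 in early, -0.23 in middle cells, -0.94 without the erythroid cells, and 0.63, the opposite sign, in middle cells without them (12 against 24). The endothelial median (0.30) was -1.24 in early and -1.21 in late cells, and -0.16 in CPM and -0.041 with spike-in scaling. The meiosis median (0.43) was -0.076 in middle cells without erythroid RNA. Leaving out each cell in turn gave 561 to 614 higher and 766 to 862 lower genes and medians of 0.27 to 0.55 (endothelial), 0.07 to 0.16 (germ cell), 0.27 to 0.48 (meiosis) and -1.78 to -1.49 (maternal). Reversed genes in early cells were Dpf3 (5.60), Dppa3 (0.65), Gm10718 (-0.61), Hdac5 (-2.16), Igf2bp1 (-2.56), Itih2 (-0.043), Jmjd7 (-0.16), Npdc1 (-5.63), Rad21l (-1.41), Slc35c1 (-3.05) and Sp140 (1.67). In late cells they were Cyb5rl (-3.45), Hdac5 (-2.31), Klhl35 (-2.03), Mei1 (-0.44), Npdc1 (-0.12), Slc35c1 (-0.068) and Zfp618 (0.57), and in middle cells without erythroid RNA Dpf3 (0.071), Noto (1.75), Sall4 (0.57) and Tsga10ip (0.42). The causes were not tested. Of 756 values for 42 genes, 528 moved by less than 1.5 times and stayed on their side of 2-fold, some near 0 (Cdh5, Egfl7, Dazl and Mael) with a change of sign. The median of all genes, 0.05, was 0.14 with the 5 and 0.1 TPM limits, 0.16 by mean log2, -0.58 in early and -0.20 in late cells. Counting every library as a cell, leaving out cells with collagen RNA, and middle cells without erythroid RNA were chosen after seeing the data. No paired analysis was possible because the labels give no shared replicate numbers and no test was made.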
